A study of Mus musculus with 31 samples.

Results

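Transcripts of 50 genes that build, cross-link or degrade the extracellular matrix were followed in 3 fat depots of mice, at thermoneutrality and after 2 or 4 days in the cold. The genes were taken as a list of names, drawn up with earlier results of these data known: fibrillar, basement membrane and other collagens, laminins and nidogens, small leucine-rich proteoglycans, elastic fibre and microfibril proteins, adhesive glycoproteins, lysyl oxidases, matrix proteases with their inhibitors, and the fibroblast surface proteins Thy1 and Pdgfra. Of the 50, 45 have a row among the 17334 transcript rows of the count tables, and 40 of these had enough counts to be tested in a fit of all libraries. The clearest result was a depot difference. After 4 days in the cold, 22 of the 40 tested genes were lower in inguinal than in epididymal white fat and 1 was higher, where 5.44% of all 11041 rows tested were lower and 4.49% higher. With edgeR on rows that passed a filter on low counts, no matrix gene passed the test between a cold day and thermoneutrality within any depot. With no filter Loxl1 passed in brown fat at day 2. Another tool, DESeq2, called Loxl1 in brown fat and several genes in inguinal fat, as given below with their limits.

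The extracellular matrix of fat holds each adipocyte in a basement membrane of type IV collagen, laminins and nidogens, set in an interstitial network of fibrillar collagens, type VI collagen, microfibrils and elastic fibres. Much of the interstitial matrix is made by fibroblasts and adipocyte progenitors. Enzymes of the lysyl oxidase family cross-link collagen and elastin, and metalloproteinases, held in check by the tissue inhibitors of metalloproteinases, open the network when the tissue changes size or composition.

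All mice were male C57BL/6J aged 8 weeks that had been acclimated for 8 days at thermoneutrality. Groups are interscapular brown fat (iBAT), a heat-producing depot, and 2 white depots that store lipid, inguinal (iWAT) and epididymal (eWAT), each at day 0 (no cold) and after 2 or 4 days at 4 °C. iBAT has 3, 4 and 3 libraries at days 0, 2 and 4, iWAT has 4, 3 and 5, and eWAT has 3 at each day, 31 in all, each made from 1 µg of total RNA and named here by depot and label number. The labels do not say whether libraries of a group come from separate mice, so p-values measure the spread between these libraries, which may be technical.

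Total counts per library ran from 1.5 to 5.53 M, with a median of 3.42 M. In iBAT539 and iBAT548 small counts are largely missing, where 159 and 57 rows hold a single read. The remaining iBAT libraries have 1014 to 1224 such rows. Brown adipocyte markers summed to 13948 to 51932 CPM (a gene's counts as a share of the library's, on 1 common scale) in iBAT libraries, 433.2 to 11492 CPM in those of iWAT and 40.83 to 406.2 CPM in those of eWAT, the order the depot labels give. Other tissues left traces that differ by depot. Skeletal muscle markers summed to 5764 to 68665 CPM in iBAT, lymphocyte markers to 1014 to 3780 CPM in iWAT, and markers of epididymis, testis and sperm to 148.7 to 33391 CPM in eWAT. Libraries of a group also spread along an axis shared by all depots, whose share of the variance within groups was 50.3% (iBAT), 39.6% (iWAT) and 40.2% (eWAT). On a score along this axis, found without the matrix genes, iBAT535, iBAT539, iBAT548, iWAT516, iWAT517, iWAT518, iWAT550, iWAT551, iWAT553, eWAT518, eWAT532 and eWAT538 lie above a gap and the others below it. Epidermal and mammary epithelial markers (7 genes with a row) moved with the score. They summed to 1610 to 2247 CPM above the gap and 33.07 to 1106 below it in iBAT, 2514 to 13133 and 96.63 to 2026 in iWAT, and 3446 to 4955 and 126.5 to 1408 in eWAT, with no overlap in any depot. In iBAT 3 or 4 of the 7 were at 0 in each group, and in the white depots none was. Their part in the results was not tested.

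Not every matrix gene can be read from these tables. Col12a1, Fbln2, Serpinh1, Timp1 and Pdgfra were not analysed here. Col6a3, Col18a1, Dcn and Postn have 2, 1, 2 and 5 counts over all 31 libraries, and RefSeq lists at least 2 mRNA accessions for each of them. Of all genes with 1 such accession 74.7% have a row, against 67.3% of those with 2 or more, and among the 50 matrix genes the shares are 96.9% and 77.8%. The counting step is not recorded, so whether reads of genes with several transcripts were left out was not tested, and the near absence of counts for Dcn and Col6a3 is no measure of their expression. Pcolce, with 116 counts, was too low to test. Lox, Loxl2 and Nid2 passed the filter on low counts in eWAT alone but not in iBAT or iWAT alone. Fmod passed in each white depot alone but not in iBAT alone. In the fit of all libraries, calls of these genes as lower where they did not pass may follow from the filter. They are counted below but are no independent support for a depot difference. Col4a1 and Col4a2 lie head to head and their annotations share 85 bases, and since strand use is not recorded, counts from that stretch could belong to either.

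Promoters of 31 of the 50 genes are in the RefSeq table for GRCm38.p6. Those of Nid1, Ogn and Fmod are shown as examples of genes that gave depot differences at every day tested in at least 1 pair of depots. They were chosen after their values were seen. Fn1, Mfap5, Timp2, Thy1, Col5a1 and Mgp met the same condition, and at least Timp2 and Col5a1 have a promoter there that is not shown. Each window is the 250 bases before the annotated start, from chr13:13437352-13437601 (plus strand) for Nid1, chr13:49607765-49608014 (plus strand) for Ogn and chr1:134037004-134037253 (plus strand) for Fmod. Capitals mark matches, on either strand, to 4 motifs: the TATA box core (TATAAA), the box read as CCAAT, the GC box (GGGCGG) and the AP-1 site (TGACTCA).
Nid1: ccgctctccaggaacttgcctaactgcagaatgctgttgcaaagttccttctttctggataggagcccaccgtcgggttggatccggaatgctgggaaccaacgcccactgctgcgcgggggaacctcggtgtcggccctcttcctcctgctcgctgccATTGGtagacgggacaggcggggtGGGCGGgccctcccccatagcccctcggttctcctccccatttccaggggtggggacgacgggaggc
Ogn: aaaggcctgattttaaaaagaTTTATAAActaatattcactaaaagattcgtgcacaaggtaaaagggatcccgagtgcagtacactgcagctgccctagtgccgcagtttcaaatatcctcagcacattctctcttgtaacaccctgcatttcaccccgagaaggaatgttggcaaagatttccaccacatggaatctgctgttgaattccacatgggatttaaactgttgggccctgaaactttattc
Fmod: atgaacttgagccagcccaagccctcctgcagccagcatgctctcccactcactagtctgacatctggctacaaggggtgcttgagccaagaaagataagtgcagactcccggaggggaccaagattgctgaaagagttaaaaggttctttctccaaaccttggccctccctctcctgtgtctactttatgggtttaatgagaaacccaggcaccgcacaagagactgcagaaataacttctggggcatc
The Nid1 window, with 64.4% G and C, holds CCAAT on the minus strand and GGGCGG on the plus strand. The Ogn window, with 42% G and C, holds TATAAA on both strands in overlapping matches, and the Fmod window, with 51.2%, holds none of the 4. GGGCGG was found in 19 of the 31 matrix gene promoters (61.3%) and in 32.9% of all 27025 promoters. CCAAT was in 11 (35.5%, against 34.5% of all), TATAAA in 2, Ogn and Col3a1 (6.45%, against 13%), and TGACTCA in 1, that of Col6a1 (3.23%, against 4.43%). These are matches of letters and not shown to be binding sites.

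Sparc, a collagen-binding protein secreted with newly made matrix, was by far the most abundant matrix transcript. Levels between genes are compared per kilobase of transcript (CPM per kb). On that scale Sparc averaged 1784, 2109 and 2195 in iBAT at days 0, 2 and 4, then 1259, 1256 and 1103 in iWAT and 2405, 2617 and 3274 in eWAT. It gave 23.8% to 56.5% of all matrix gene counts of a library. By library Sparc had 4008, 4530 and 3770 CPM in iBAT at day 0, 5471, 5101, 4731 and 4098 at day 2, and 4074, 5464 and 5606 at day 4. In iWAT it had 2282, 1348, 4239 and 3718, then 4420, 1710 and 2534, then 1791, 3497, 2354, 3663 and 1385, and in eWAT 5284, 6522 and 4786, then 3502, 2467 and 12089, then 8476, 5574 and 8540 at the same days. The iWAT libraries lay below those of eWAT at days 0 and 4 and overlapped them at day 2. The next in order at day 0 was Dpt (dermatopontin, which binds decorin and collagen fibrils) in iBAT at 170, Thy1 in iWAT at 221, and Mgp (matrix Gla protein, an inhibitor of calcification) in eWAT at 595. At day 4 of eWAT, Mgp reached 980, Dpt 747 and Col1a1 233.

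Summed over the 45 genes, matrix transcripts came to 3670 to 9801 CPM in iWAT libraries, 7208 to 10553 in iBAT and 8685 to 22127 in eWAT. By group the sum in iBAT was 8367 ± 502.3, 9626 ± 994.0 and 9178 ± 1706 CPM at days 0, 2 and 4 (SD, n = 3, 4 and 3). In iWAT it was 7573 ± 2256, 6081 ± 2350 and 6065 ± 1869 (n = 4, 3 and 5), and in eWAT 13304 ± 2459, 13725 ± 7324 and 18905 ± 4472 (n = 3 each). Libraries of eWAT at day 2 were the most uneven, with 8685 and 10365 CPM in eWAT532 and eWAT538 and 22127 in eWAT539. The mean of each eWAT group exceeded that of each iBAT and iWAT group. At days 0 and 4 all eWAT libraries also lay above those of the other depots. At day 2 they lay above those of iWAT and overlapped those of iBAT.

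**Figure D1:**
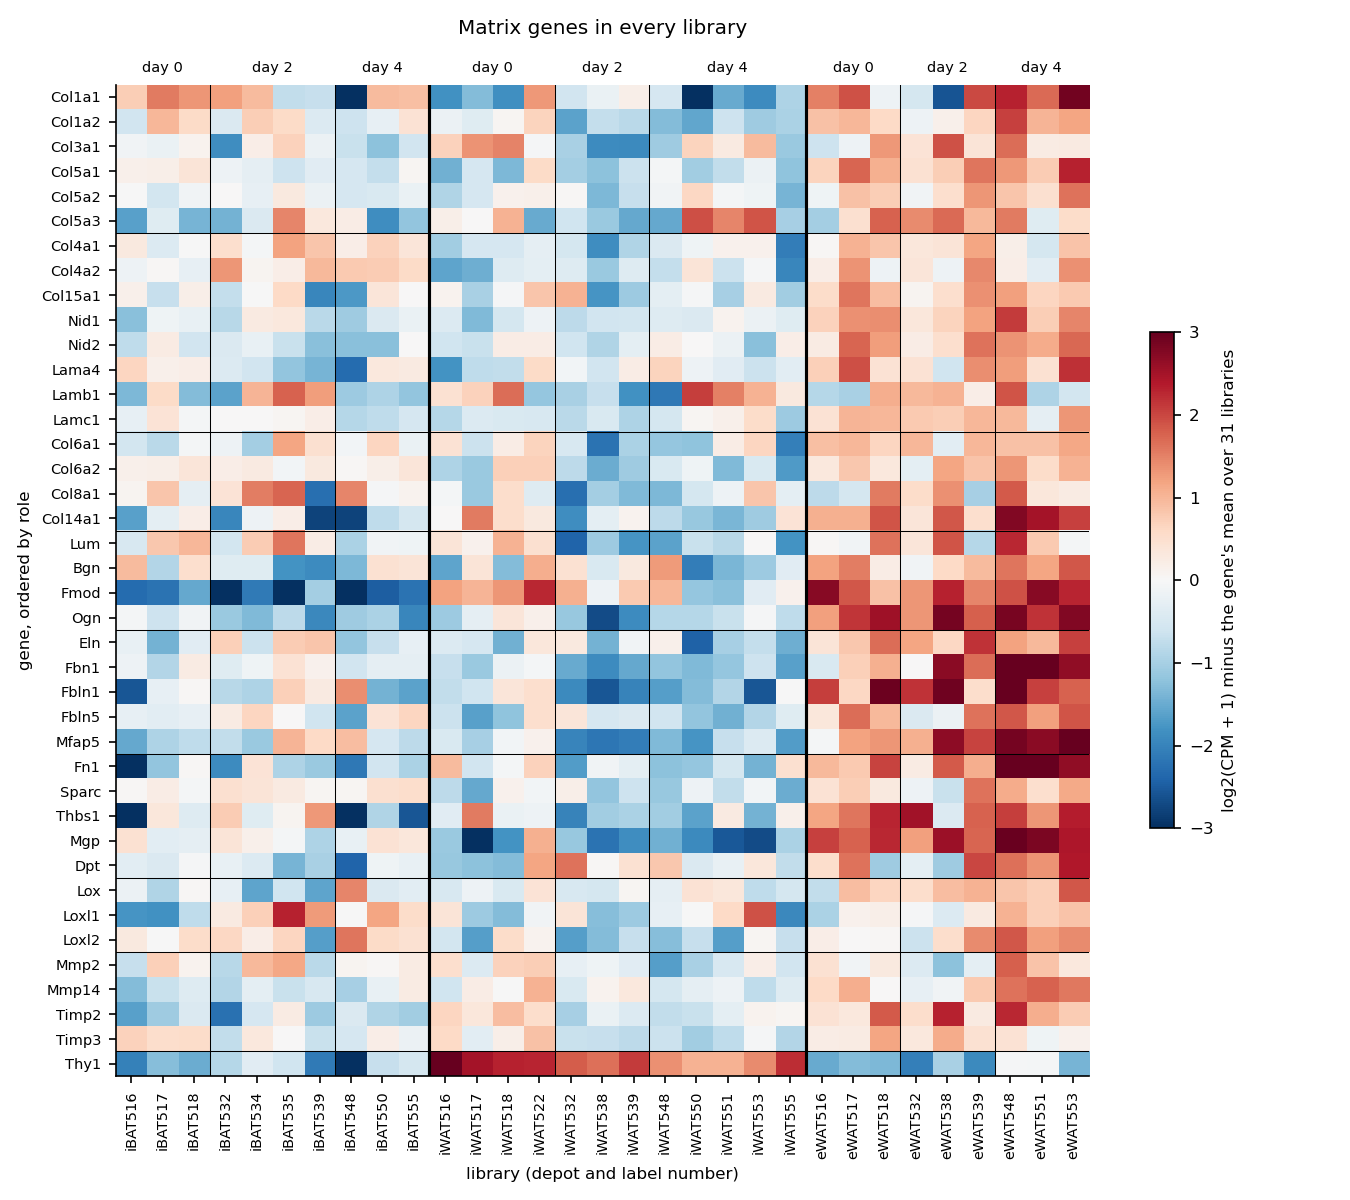
Matrix genes (rows, ordered by role) in each of the 31 libraries (columns, by depot and day); colour is log2(CPM + 1) minus the gene's mean over all libraries, from -3 (blue) to 3 (red). Red fills most of the 3 eWAT columns at day 4, Fmod is blue in iBAT, and Thy1 is red in the 12 iWAT libraries.

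The heat map of all libraries shows the depots more plainly than the days. It also shows genes that split libraries of 1 group, such as Col1a1, one of the chains of type I collagen. Col1a1 had 440, 778 and 665 CPM in iBAT at day 0, 618, 514, 157 and 163 at day 2, and 32.0, 515 and 491 at day 4. In iWAT the values were 74.3, 106, 73.6 and 654 at day 0, 177, 230 and 301 at day 2, and 185, 28.6, 92.6, 70.4 and 138 at day 4. In eWAT they were 757, 1001 and 236 at day 0, 184, 43.2 and 1054 at day 2, and 1319, 856 and 1969 at day 4. Low values fell in the libraries above the gap of the library score in every depot. They were 32.0 to 163 CPM in the 3 such iBAT libraries against 440 to 778 in the other 7, 28.6 to 106 against 138 to 654 in iWAT (6 and 6), and 43.2 to 236 against 757 to 1969 in eWAT (3 and 6). Over all tested matrix genes, 3 lay wholly above and 4 wholly below in the high-score iBAT libraries (of 36), where 6.13% and 13.3% of all rows did so. The counts were 3 and 2 of 37 in iWAT (4.6% and 6.27% of all rows) and 0 and 7 of 40 in eWAT (10.1% and 13.8%).

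Col3a1, the chain of type III collagen, did not share the pattern of Col1a1. In iWAT it split by the library score in the reverse order, with 522.2 to 1224 CPM above the gap and 116 to 424 below it. In iBAT and eWAT the sides overlapped. It had 402, 380 and 467 CPM in iBAT at day 0, 118, 501, 705 and 385 at day 2, and 274, 186 and 290 at day 4. In iWAT it had 702, 1106, 1224 and 424, then 223, 117 and 116, then 207, 688, 522.2, 837 and 201. Values in eWAT were 284, 389 and 1081, then 577, 1630 and 569, then 1392, 514 and 524 at the same days, and each eWAT group held 1 library well above its other two. Col4a1, which with Col4a2 forms the main type IV collagen of basement membranes, was more even. Its values were 393, 243 and 321 CPM in iBAT at day 0, 460, 310, 749 and 577 at day 2, and 373, 524 and 417 at day 4. In iWAT they were 156, 228, 227 and 266, then 223, 88.6 and 173, then 238, 296, 353, 351 and 76.0. In eWAT they were 331, 667 and 578, then 410, 423 and 731, then 367, 225 and 586. All iWAT libraries lay below those of eWAT at days 0 and 2 and below those of iBAT at days 2 and 4. At day 4 eWAT overlapped both other depots.

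Elastin (Eln), the core of elastic fibres, had 20.4, 8.48 and 19.0 CPM in iBAT at day 0, 40.6, 15.1, 41.8 and 43.5 at day 2, and 10.1, 14.7 and 20.1 at day 4. In iWAT it had 18.0, 16.8, 8.31 and 30.7, then 29.7, 8.40 and 22.5, then 27.1, 3.72, 11.6, 14.4 and 8.18. In eWAT it had 31.8, 43.0 and 79.7, then 56.5, 37.7 and 113, then 56.8, 48.5 and 103, all above the iWAT libraries of the same day. The cross-linking enzyme Lox was near the limit of detection throughout, with 1.63, 0.606 and 2.08 CPM in iBAT at day 0, 1.53, 0, 0.972 and 0 at day 2, and 7.28, 1.22 and 1.40 at day 4. In iWAT Lox had 1.13, 1.71, 1.19 and 2.95, then 1.16, 1.08 and 2.11, then 1.47, 3.02, 2.77, 0.756 and 1.07, and in eWAT 0.801, 4.69 and 3.67, then 3.28, 4.71 and 5.18, then 4.35, 3.90 and 9.86. Fn1 (fibronectin) had 4.49, 17.9 and 43.6 CPM in iBAT at day 0, 10.7, 56.6, 21.9 and 19.0 at day 2, and 8.86, 28.2 and 21.5 at day 4. In iWAT it had 83.0, 28.0, 40.4 and 68.8, then 12.5, 39.0 and 34.3, and in eWAT 83.3, 73.1 and 175, then 50.4, 155 and 91.3 at days 0 and 2. At day 0 the white depots overlapped and all iBAT libraries lay below those of eWAT. At day 2 the iWAT libraries lay below those of eWAT, and of the iBAT libraries only iBAT534 reached into their range. Mmp2, a protease that cleaves type IV collagen and gelatin, had 66.1, 178 and 117 CPM in iBAT at day 0, 59.8, 213, 242 and 61.2 at day 2, and 114, 110 and 128 at day 4. Its values were 154, 81.4, 174 and 181, then 90.2, 98.9 and 85.2, then 33.6, 54.6, 77.6, 125 and 72.6 in iWAT, and 149, 99.5 and 132, then 81.2, 45.6 and 88.0, then 376, 195 and 135 in eWAT. The 2 white depots overlapped for Mmp2 at days 0 and 2 and not at day 4.

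**Figure D2:**
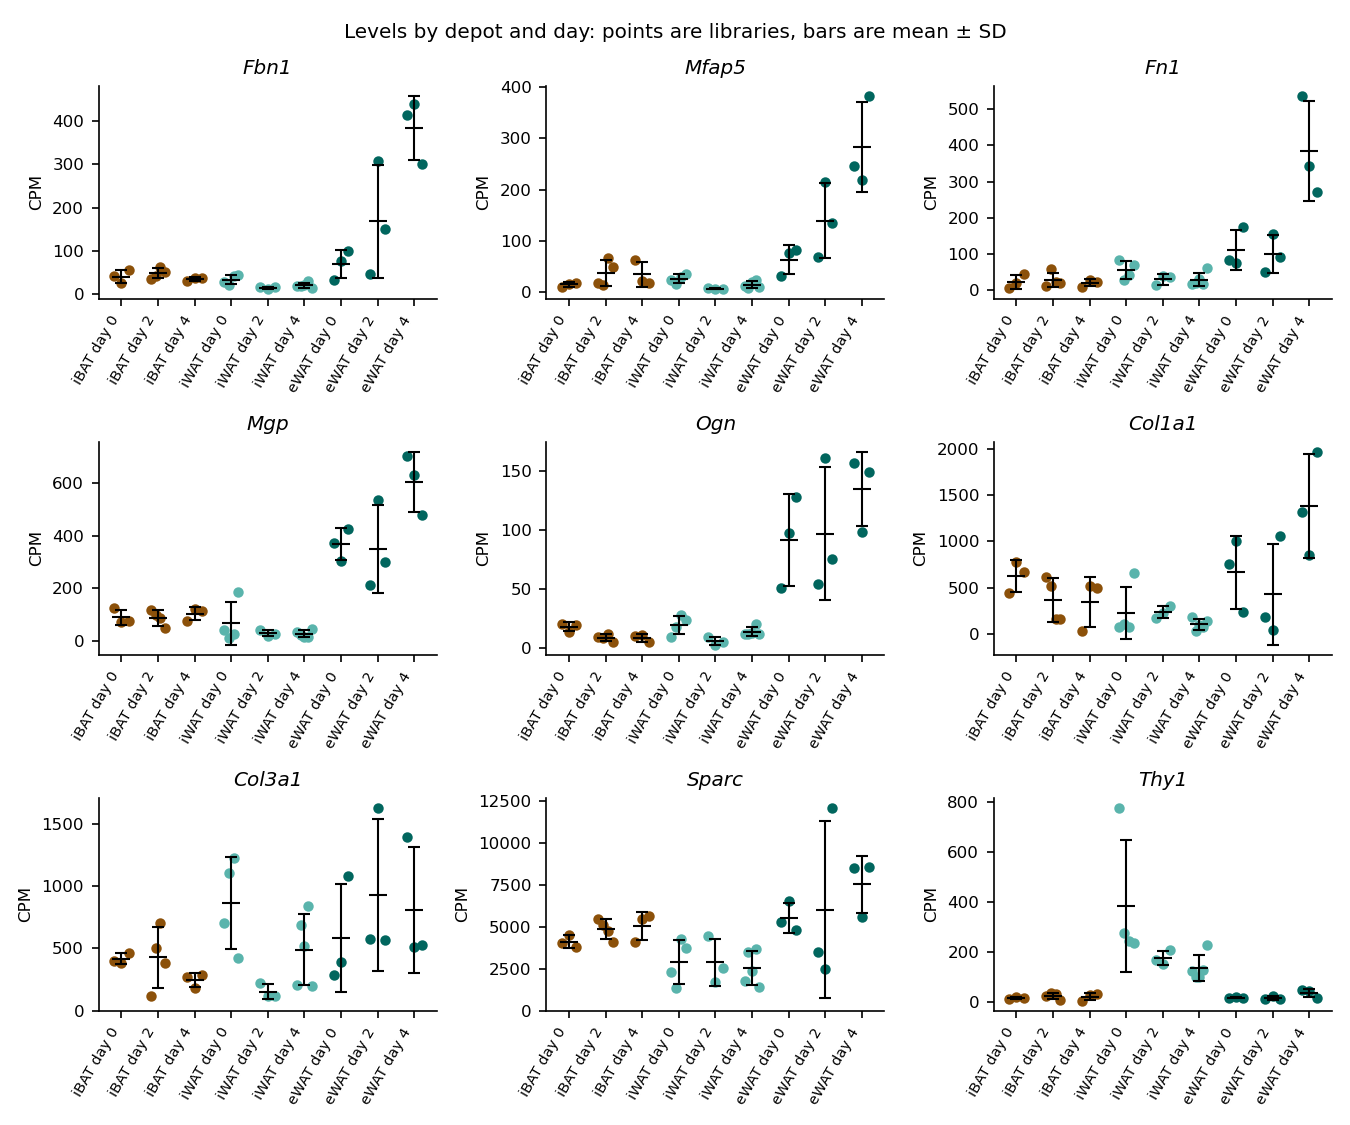
Levels of 9 matrix genes in CPM, by depot and day; points are libraries, and the bars are the mean and the SD of each group of 3 to 5. The eWAT libraries at day 4 stand above all iBAT and iWAT libraries for Fbn1, Mfap5, Fn1, Mgp and Ogn, and Thy1 is highest in iWAT.

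More matrix genes were called between the 2 white depots at day 4 than at day 0 or 2; no test compares these numbers, and the comparisons rest on 8 libraries at day 4, 7 at day 0 and 6 at day 2. In iWAT at day 4, transcripts of microfibril and elastic fibre proteins, of adhesive glycoproteins and of several collagens were lower than in eWAT at day 4. Of 40 tested matrix genes 22 were lower (adjusted p under 0.05 over all 11041 rows tested) and 1 was higher, where 5.44% of all rows were lower and 4.49% higher, 9.94% in either direction. The median log2 difference of the matrix genes was -1.81, against 0.05 over all rows, and 37 of the 40 were negative. In bulk tissue, fewer cells of a type and less RNA per cell cannot be told apart, here and below. Without each of the 8 libraries in turn the number called was 17 to 24. A block for the label number called fewer than this range, as given at the end. At day 4 iWAT550, iWAT551 and iWAT553 lie above the gap of the library score and no eWAT library does. Depot and score are therefore partly mixed in this comparison.

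Elastic fibre and microfibril genes were all lower, 5 of 5 tested, with a median of -4.04. Fbn1, fibrillin-1, the main protein of microfibrils, had 19.7, 17.9, 19.96, 29.5 and 14.4 CPM in iWAT at day 4, against 414, 439 and 300 CPM in eWAT at day 4. The groups lie far apart. Its log2 difference was -4.25 (SE 0.44, adjusted p = 2.13e-06). Mfap5, a microfibril-associated glycoprotein, had 12.4, 8.83, 19.96, 24.2 and 9.52 CPM in iWAT, against 247, 218 and 383 in eWAT, a log2 difference of -4.26 (SE 0.51, adjusted p = 1.03e-05). Fbln1, a fibulin found on microfibrils and elastic fibres, averaged 1.86 ± 1.84 CPM in iWAT and 34.7 ± 23.6 in eWAT (SD, n = 5 and 3), and the log2 difference was -4.04 (SE 0.89, adjusted p = 0.00352). Fbln1 rests on 3, 6, 4, 0 and 36 reads in iWAT at day 4, so the size of its difference is uncertain. Fbln5, a fibulin needed for elastic fibre assembly, and Eln were lower by log2 differences of -2.59 and -2.42.

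Of the adhesive and matricellular glycoproteins 4 of 5 were lower. Mgp had 31.8, 22.8, 14.4, 12.9 and 45.2 CPM in iWAT at day 4, against 704, 631 and 478 CPM in eWAT at day 4. The log2 difference of -4.55 (SE 0.61, adjusted p = 2.57e-05) was the most negative of the 40. Fn1, fibronectin, the glycoprotein that links cells to collagen through integrins, had 17.4, 18.4, 28.8, 15.1 and 59.6 CPM in iWAT, against 537.8, 344 and 271 in eWAT. The log2 difference of Fn1 was -3.77 (SE 0.62, adjusted p = 2.34e-04). Sparc had 1791, 3497, 2354, 3663 and 1385 CPM in iWAT, against 8476, 5574 and 8540 in eWAT, a log2 difference of -1.57 (adjusted p = 0.0188) that passed in 6 of 8 fits with 1 library left out. Thbs1, thrombospondin-1, an activator of latent TGF-beta, was lower by -2.69, and Dpt, with -1.81 and groups of 366 ± 166 and 1287 ± 508 CPM, was not past the threshold.

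Among collagens, 3 of 6 fibrillar and 2 of 4 other collagens were lower, and 1 of 8 basement membrane genes. Col1a1 had a log2 difference of -3.74 (SE 0.86, adjusted p = 0.00517), with iWAT at 28.6 to 185 CPM and eWAT at 856 to 1969 at day 4. Col1a1 was lower above the gap of the library score in every depot. In iWAT at day 4 it had 28.6, 92.6 and 70.4 CPM above the gap and 185 and 138 below it. Col1a2, the partner chain, Col5a1, which controls the width of type I fibrils, Col6a2 and the fibril-associated Col14a1 were lower by -2.57, -2.21, -1.71 and -3.34. Col3a1 was not called, with a log2 difference of -0.72 and libraries at 201 to 837 CPM in iWAT against 514 to 1392 in eWAT. In the basement membrane Nid1, nidogen-1, which ties laminin to type IV collagen, was lower by -1.78 (SE 0.36, adjusted p = 0.00164), with iWAT libraries at 210 to 309 CPM and eWAT libraries at 477 to 1221.

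Of 4 tested proteoglycans 3 were lower: Ogn (osteoglycin) by -3.33, Fmod (fibromodulin) by -2.54 and Lum (lumican) by -2.18. Fibromodulin and lumican are known to shape collagen fibrils. Ogn had 11.2, 11.2, 12.8, 20.4 and 11.9 CPM in iWAT at day 4, against 157, 98.5 and 149 CPM in eWAT at day 4. Of 4 proteases and inhibitors 3 were lower: Mmp14, a membrane protease that activates pro-Mmp2, by -2.17, Timp2, its inhibitor and cofactor, by -1.81, and Mmp2 by -1.70. Loxl2 was lower by -3.22 at levels of 0.887 ± 0.874 and 8.01 ± 2.06 CPM, while Loxl1 and Lox were not called. Loxl2 passed the count filter in eWAT alone but not in iWAT alone, so its call may follow from the filter. Of the 23 calls at day 4, 15 held in all 8 fits that leave out 1 library. Without eWAT548 the calls of Loxl2, Lum, Mmp2, Sparc, Thbs1 and Timp2 were lost, without eWAT551 those of Fmod, Thbs1 and Thy1, and without eWAT553 those of Sparc, Thbs1 and Thy1. Without iWAT548, iWAT550 or iWAT553 only Thbs1 was lost.

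Thy1 (CD90) was the exception in direction. It had 125, 99.3, 100, 129 and 227 CPM in iWAT at day 4, against 46.7, 45.6 and 17.7 CPM in eWAT at day 4, a log2 difference of 1.89 (SE 0.54, adjusted p = 0.0239). At day 0 the values were 779, 275, 243 and 237 CPM in iWAT and 16.0, 18.8 and 18.1 CPM in eWAT, a log2 difference of 4.44 (SE 0.63, adjusted p = 4.18e-05). Thy1 marks fibroblasts and, in the mouse, T cells as well. The 11 lymphocyte markers with a row summed to 1014 to 3780 CPM over all iWAT libraries, against 12.86 to 50.85 CPM in eWAT and 0 to 31.81 CPM in iBAT, and none was at 0 in iWAT. Their part in the Thy1 difference was not tested.

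Markers of some other cells were also lower in iWAT than in eWAT at day 4, and those of others overlapped or were higher. Fibroblast and adipocyte progenitor markers (11 genes with a row) summed to 250.5 to 380.5 CPM in iWAT at day 4, against 814.5 to 1022 CPM in eWAT at day 4. Of 9 tested 5 were lower, among them Cd248 (log2 difference -3.70, adjusted p = 0.00137) and Clec3b (-3.48, adjusted p = 2.57e-05), and 1 of the 11 was at 0 in each group. Macrophage markers summed to 107.8 to 359.3 CPM in iWAT and 368.7 to 826.3 CPM in eWAT, and 4 of 9 were lower. Mesothelial markers, which line the surface of eWAT, summed to 0.5544 to 45.60 CPM in iWAT and 127.2 to 378.0 CPM in eWAT, with 7 of 8 lower and none of the 9 at 0 in either group. Endothelial markers overlapped, at 251.8 to 632.5 CPM in iWAT and 420.4 to 950.4 CPM in eWAT. Mural, Schwann, skeletal muscle, epididymal, epithelial and mature adipocyte markers overlapped as well. Lymphocyte markers were higher in iWAT, at 1014 to 3449 CPM against 13.65 to 46.97 CPM. So were brown adipocyte markers, at 1005 to 11492 CPM against 59.71 to 184.9 CPM. What these cells contribute to the matrix differences was not tested.

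**Figure D3:**
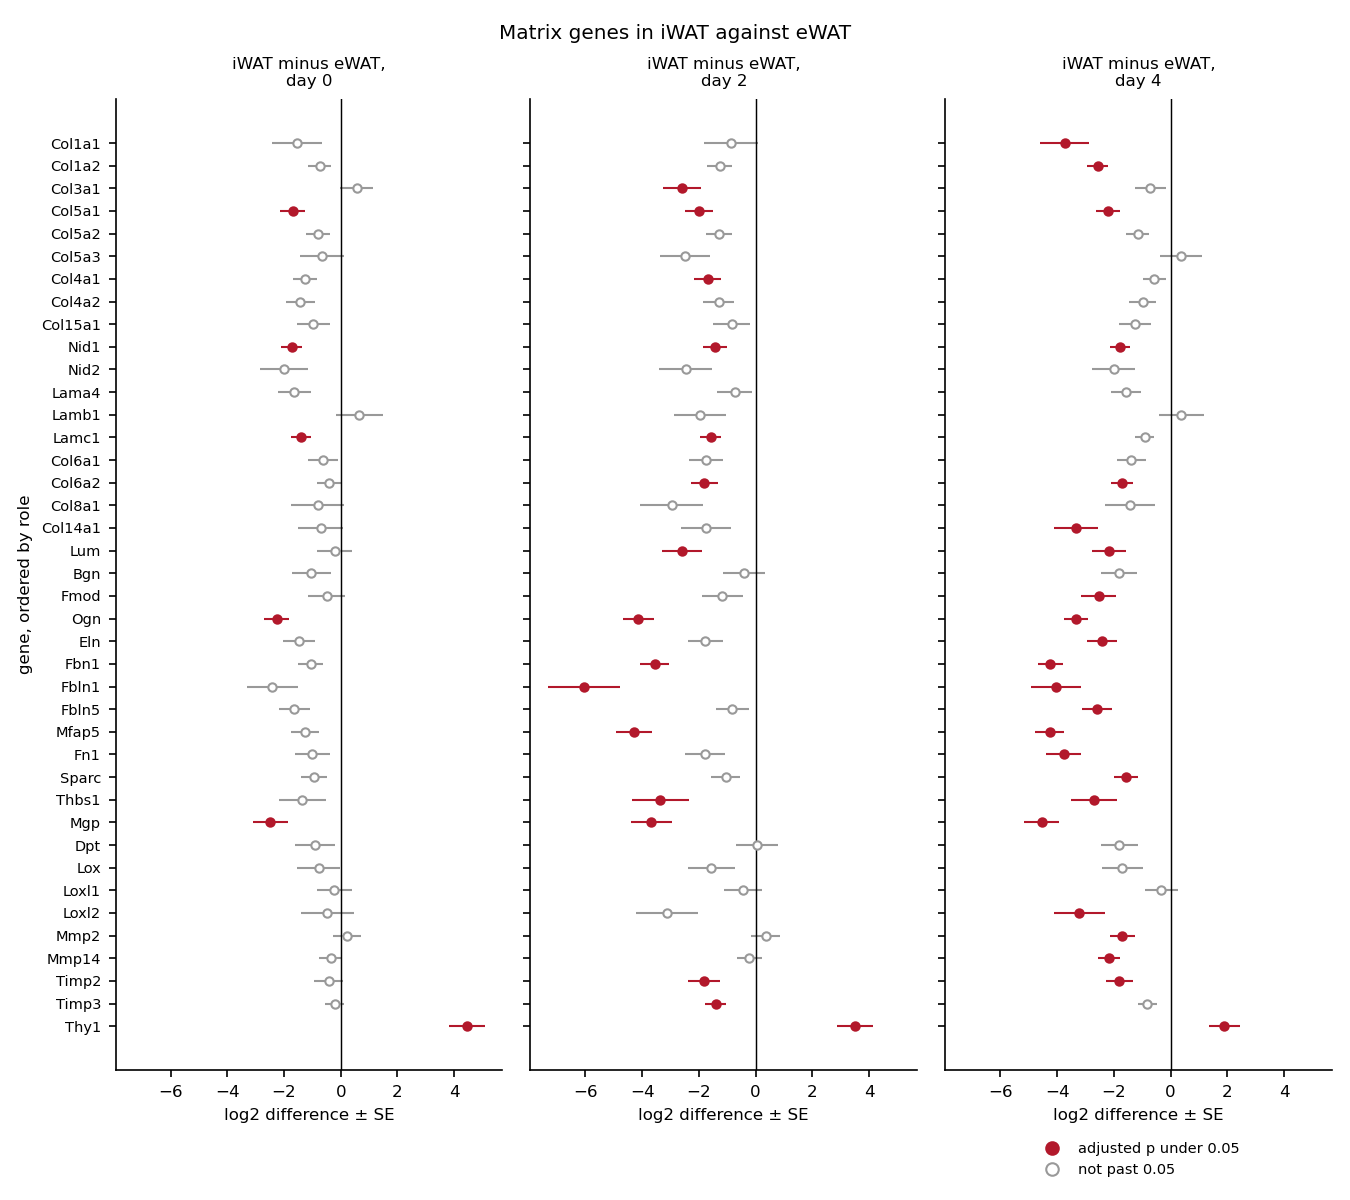
Log2 difference of iWAT minus eWAT for each tested matrix gene (rows, ordered by role) at days 0, 2 and 4, with the SE as bars; filled points have an adjusted p under 0.05. At day 4, 22 genes are filled left of 0 and Thy1 right of it, against 5 and 1 at day 0.

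The same comparison at thermoneutrality gave fewer calls with the same lean. At day 0, 5 of 40 were lower in iWAT than in eWAT (2.8% of all rows) and Thy1 was higher (5.02%), 7.82% of rows being called in either direction. The median of the 40 was -0.92, against -0.04 over all rows, and 36 were negative. The 5 are Mgp (log2 difference -2.49, SE 0.62, adjusted p = 0.0116), Ogn (-2.26, SE 0.45, adjusted p = 0.00156), Nid1 (-1.73, SE 0.38, adjusted p = 0.00436), Col5a1 (-1.69, SE 0.44, adjusted p = 0.0171) and Lamc1, a laminin chain common to most laminins (-1.40, SE 0.35, adjusted p = 0.0110). Mgp had 40.5, 8.77, 24.9 and 187 CPM in iWAT, against 370, 304 and 426 CPM in eWAT. Nid1 had 215, 113, 199 and 258 CPM in iWAT, against 461, 744 and 747 CPM in eWAT. The groups do not overlap for these 5, and the share of all rows without overlap is not given. Col5a1 was lost without iWAT516, iWAT518 or eWAT517, and Lamc1 without eWAT517.

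At day 2, a comparison added after the data were seen, 15 of 40 were lower in iWAT (5.16% of all rows) and Thy1 was higher (5.03%), with 10.2% of rows called either way and a median of -1.72 against -0.12. Largest were Fbln1 (log2 difference -6.05, SE 1.27), Mfap5 (-4.30, SE 0.63), Ogn (-4.14, SE 0.54), Mgp (-3.68, SE 0.72), Fbn1 (-3.56, SE 0.52) and Thbs1 (-3.36, SE 1.00), with adjusted p from 1.64e-05 to 0.0310. The other 9 ran from -1.41 (Timp3) to -2.60 (Col3a1). Fbln1 rests on 2, 0 and 2 reads in iWAT at day 2, so the size of its difference is uncertain. Mfap5 had 7.57, 6.51 and 7.04 CPM in iWAT at day 2, against 69.3, 214 and 136 in eWAT at day 2. Each depot has 3 libraries at this day, and the count fell to 8 without iWAT538, 7 without iWAT539 and 10 without eWAT538, so 6 of the 16 calls held in every such fit: those of Fbln1, Fbn1, Mfap5, Mgp, Ogn and Thy1. At this day eWAT532 and eWAT538 lie above the gap of the library score and no iWAT library does. With the score as covariate Lum and Timp2 were no longer called. Col5a1, Mgp, Nid1 and Ogn were lower in iWAT at all 3 days.

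Brown fat was also lower than eWAT. In iBAT at day 4, 18 of 40 tested matrix genes were lower than in eWAT and 0 higher, where 11.4% of all rows were lower, 6.67% higher and 18.1% called either way. The median was -1.67, against -0.41 over all rows. At day 0, 7 were lower and 0 higher (5.21% and 5.07% of all rows, 10.3% either way) with a median of -0.997 against -0.18, and at day 2, 9 were lower and 0 higher (10.5% and 7.29%, 17.8% either way) with a median of -0.96 against -0.31. Fmod, Fn1, Mfap5, Ogn and Timp2 were lower at all 3 days. With 1 library left out the counts were 2 to 5 at day 0, 3 to 9 at day 2 and 13 to 18 at day 4.

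Fmod, which did not pass the count filter in iBAT alone, gave the widest gap. It had 0, 0.612 and 0.934 CPM in iBAT at day 4, against 32.8, 58.0 and 42.2 CPM in eWAT at day 4. Its log2 difference was -6.49 (SE 1.00, adjusted p = 8.96e-05). iBAT libraries reached at most 3.40 CPM at any day and eWAT libraries at least 15.4. The next at day 4 were Thbs1 (-4.77, SE 1.14, adjusted p = 0.00496), Fn1 (-4.31, SE 0.78, adjusted p = 4.82e-04), Col14a1 (-4.08, SE 1.01, adjusted p = 0.00625), Ogn (-4.04, SE 0.54, adjusted p = 2.02e-05) and Nid2 (-3.46, SE 1.04, adjusted p = 0.0222). Fmod, Thbs1, Col14a1 and Nid2 have 0 reads in iBAT548, where small counts are largely missing. In iBAT550 and iBAT555 they have 1 and 2, 6 and 1, 5 and 8, and 0 and 3 reads, so the size of these differences is uncertain. Neither Fmod nor Nid2 passed the count filter in iBAT alone, so their calls may follow from it. Fn1 had 8.86, 28.2 and 21.5 CPM in iBAT, against 537.8, 344 and 271 CPM in eWAT. The other 12 ran from -1.47 (Col5a2) to -3.43 (Fbn1). Without iBAT548, 13 were called, and Col1a2, Col5a2, Dpt, Eln, Mgp and Nid2 were no longer past the threshold.

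At day 0 the 6 largest of the 7 were Fmod (-4.73, SE 0.86), Ogn (-2.38, SE 0.50), Fn1 (-2.32, SE 0.71), Mfap5 (-2.04, SE 0.57), Timp2 (-2.01, SE 0.57) and Nid1 (-1.65, SE 0.42), with adjusted p from 5.78e-04 to 0.0351. Ogn had 19.98, 13.3 and 19.6 CPM in iBAT, against 50.4, 97.0 and 128 CPM in eWAT. Only Fmod and Ogn held in all 6 fits with 1 library left out, and without iBAT516 no other was called. At day 2 the largest were Fmod (-4.73, SE 0.82), Ogn (-3.52, SE 0.48), Lox (-2.79, SE 0.88), Mgp (-2.01, SE 0.61), Timp2 (-1.98, SE 0.52) and Mfap5 (-1.89, SE 0.52), with adjusted p from 1.75e-05 to 0.0279. Lox rests on 2, 0, 2 and 0 reads in iBAT at day 2, and the last is iBAT539, where small counts are largely missing. It passed the count filter in eWAT alone but not in iBAT alone, so its call may follow from the filter. Fmod and Ogn again held in every fit, and without eWAT538 only 3 were called.

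Between brown and inguinal fat few matrix genes were called at days 0 and 4, and more at day 2. At day 0, 0 of 40 were higher in iBAT than in iWAT (8.12% of all rows) and 3 were lower (9.77%), with 17.9% of rows called either way. These were Thy1 (log2 difference -4.63, SE 0.64, adjusted p = 1.40e-05), Fmod (-4.24, SE 0.83, adjusted p = 6.63e-04) and Timp2 (-1.59, SE 0.54, adjusted p = 0.0411). Fmod had 0.816, 0.909 and 2.08 CPM in iBAT, against 19.7, 17.1, 21.4 and 41.9 CPM in iWAT. Timp2 was called in 1 of 7 fits with 1 library left out. Thy1 and Fmod were lower in iBAT at all 3 days.

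At day 2, 8 of 40 were higher in iBAT (5.87% of all rows) and 2 lower (9.74%), 15.6% being called either way. The median was 0.70 against -0.08 over all rows, and in the test of the change between days 0 and 2 edgeR called 0 of 40. The 6 largest of the higher ones were Fbln1 (3.66, SE 1.22), Col8a1 (3.39, SE 1.10), Mfap5 (2.42, SE 0.57), Lum (2.41, SE 0.68), Fbn1 (1.75, SE 0.47) and Col4a1 (1.70, SE 0.46), with adjusted p from 0.00396 to 0.0408, and Col6a2 and Col1a2 followed with 1.28 and 1.23. Mfap5 had 19.2, 14.5, 67.5 and 49.6 CPM in iBAT at day 2, against 7.57, 6.51 and 7.04 CPM in iWAT at day 2. Fbln1 and Col8a1 rest on 2, 0 and 2 and on 0, 5 and 4 reads in iWAT at day 2. Each lost its call in 5 of 7 fits with 1 library left out, with voom and with the score as covariate. iBAT535 and iBAT539 lie above the gap of the library score and no iWAT library of day 2 does. Fbln1 and Mfap5 were higher in every iBAT library above the gap than in every one below it. Depot and score are therefore partly mixed here. Mfap5, Fmod and Thy1 held in all 7 fits with 1 library left out, and 4 to 12 were called in those fits. With library size alone in place of TMM scaling, 4 were higher and 3 lower. At day 4, Loxl2 (2.60, SE 0.90, adjusted p = 0.0456) and Mgp (1.99, SE 0.58, adjusted p = 0.0170) were higher (5.83% of all rows) and Fmod (-3.95, SE 0.95, adjusted p = 0.00479) and Thy1 (-2.63, SE 0.57, adjusted p = 0.00201) lower (11.7%), with 17.6% called either way. Loxl2 was called in 1 of 8 fits with 1 library left out, and Mgp was lost without iBAT550. With library size alone, 0 were higher and 4 lower at day 4.

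Within a depot, no matrix gene passed the threshold against day 0 with edgeR on filtered rows. In iWAT at day 2, 0 of 37 tested genes were called against day 0 with edgeR (0% of 9574 rows), while the values leaned down: 30 were negative, the median log2 change was -0.97 against -0.08 over all rows, and 14 had an unadjusted p under 0.05. The share of all rows under this unadjusted cutoff is not given, here or below. Such counts therefore do not show an excess among matrix genes. limma voom called 0 and DESeq2 called 5 (Col3a1, Lum, Mfap5, Ogn and Timp2), all lower. The share of all rows called by DESeq2 is not given, here or below. Its calls are therefore not shown to be particular to matrix genes. The smallest adjusted p with edgeR was 0.252. All 4 type VI, VIII and XIV collagens tested were negative, with a median of -1.36, as were all 4 proteases and inhibitors, with a median of -0.93, and 5 of 6 fibrillar collagens.

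Lum had 14.3, 37.4 and 23.0 CPM in iWAT at day 2, against 105, 87.7, 166 and 113 CPM at day 0, a log2 change of -2.27 (SE 0.52). Col3a1 had 223, 117 and 116 CPM at day 2, against 702, 1106, 1224 and 424 CPM at day 0, a log2 change of -2.53 (SE 0.61). The days do not overlap for either gene, and the share of all rows without overlap is not given. Day 0 is split by the library score, with iWAT516, iWAT517 and iWAT518 above the gap, while iWAT522 and all 3 libraries of day 2 lie below it. iWAT522 alone had 113 CPM of Lum and 424 of Col3a1, above each library of day 2. Col3a1 was higher in every iWAT library above the gap than in every one below it. At day 4, iWAT548 and iWAT555, which lie below the gap, had 207 and 201 CPM of Col3a1, within the range of day 2. With the score as a covariate the median was -0.92, 33 of 37 were negative and 0 were called. Most day 0 libraries and no day 2 library lie above the gap, so day and score cannot be told apart here. Fibroblast and progenitor markers summed to 254.5 to 303.2 CPM at day 2, against 444.8 to 773.6 CPM at day 0, with 0 of 8 called and 8 negative, 2 of the 11 at 0 at day 2 and 1 at day 0. Schwann cell markers (7 genes) summed to 87.01 to 165.3 CPM at day 2, against 178.6 to 601.9 CPM at day 0, with 1 at 0 at each day. Epidermal and mammary epithelial markers averaged 832.2 ± 1034 CPM at day 2 and 6493 ± 5291 CPM at day 0 (SD, n = 3 and 4), and macrophage markers summed to 100.1 to 355.9 CPM against 275.5 to 541.8 CPM. No gene of these 3 lists was called. Their part in the matrix values was not tested.

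In iWAT at day 4, 0 of 37 were called against day 0 (0% of rows), with 27 negative, a median of -0.62 against -0.01, and 10 with an unadjusted p under 0.05. DESeq2 called Col1a2 and Thy1 lower and voom 0. The smallest adjusted p with edgeR was 0.474, for Thy1 (log2 change -1.47, SE 0.42), Col1a2 (-1.17, SE 0.34) and Lum (-1.40, SE 0.42). Basement membrane genes went the other way, with 6 of 7 positive and a median of 0.35. From day 2 to day 4, 0 were called (DESeq2 and voom 0), 7 had an unadjusted p under 0.05, and Col3a1 with a log2 change of 1.73 (SE 0.58) and Lamb1, a laminin chain, with 2.29 (SE 0.82) had the smallest p. Both genes were higher in every iWAT library above the gap of the library score than in every one below it. No day 2 library of iWAT lies above the gap, and most day 4 libraries do.

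**Figure D4:**
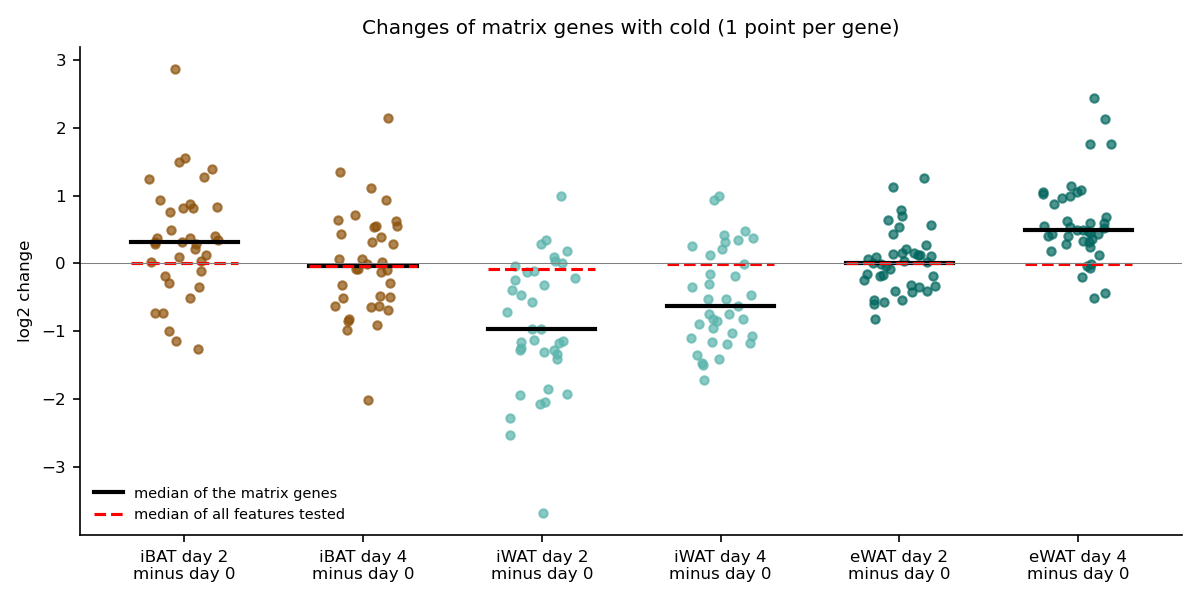
Log2 change of each tested matrix gene against day 0, by depot and cold day, 1 point per gene; the solid line is the median of the matrix genes and the dashed line that of all rows tested. Matrix medians are -0.97 and -0.62 in iWAT at days 2 and 4 and 0.49 in eWAT at day 4. With edgeR on filtered rows no gene passed the threshold.

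Epididymal fat leaned the opposite way at day 4, as the plot of changes with cold shows. There 0 of 40 were called (0% of 10043 rows; 0 with DESeq2 and voom), 34 were positive, the median was 0.49 against -0.01 over all rows, and 6 had an unadjusted p under 0.05. All 5 elastic fibre genes, 5 of 5 adhesive glycoproteins and 4 of 4 proteoglycans were positive. Mfap5 had 247, 218 and 383 CPM in eWAT at day 4, against 31.2, 76.9 and 82.9 CPM at day 0, a log2 change of 2.13 (SE 0.54). Fbn1 had 414, 439 and 300 CPM at day 4, against 33.2, 76.7 and 98.6 CPM at day 0, a log2 change of 2.44 (SE 0.67). Fn1 had 537.8, 344 and 271 CPM at day 4, against 83.3, 73.1 and 175 CPM at day 0, a log2 change of 1.76 (SE 0.54). The days do not overlap for these genes, and each has an adjusted p of 1.000. How many of all 10043 rows also do not overlap is not given.

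At day 2 of eWAT 0 of 40 were called (DESeq2 and voom 0), the median was 0.01, 21 were positive, 0 had an unadjusted p under 0.05, and Mfap5 and Fbn1 had log2 changes of 1.13 (SE 0.53) and 1.26 (SE 0.65). Libraries of days 0 and 2 fall on both sides of the score, with eWAT518 of day 0 and eWAT532 and eWAT538 of day 2 above the gap. All 3 libraries of day 4 lie below it, as do eWAT516 and eWAT517 of day 0, and in a fit on the libraries below the gap the day 4 median was 0.77, with 35 of 40 positive and 0 called. That fit was added after the data were seen and sets the day 4 libraries against eWAT516 and eWAT517 alone. The part of the score in the day 4 values was not tested. Between day 2 and day 4, 0 were called (DESeq2 and voom 0), 7 had an unadjusted p under 0.05, and Fn1 and Mmp2 had log2 changes of 1.93 (SE 0.55) and 1.68 (SE 0.48). Macrophage markers summed to 368.7 to 826.3 CPM at day 4, against 143.5 to 352.5 CPM at day 0, and fibroblast and progenitor markers to 814.5 to 1022 CPM against 443.4 to 740.5 CPM, with 0 of 9 called in either list. Mesothelial markers overlapped, at 127.2 to 378.0 CPM and 62.87 to 579.7 CPM.

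In iBAT at day 2, 0 of 36 were called against day 0, where 0.157% of 8270 rows were, 0.133% higher and 0.0242% lower. The median was 0.32 against 0.01, 26 were positive, 3 had an unadjusted p under 0.05, and voom called 0. With library size alone the median was 0.02, and -0.27 over all rows. Loxl1, a lysyl oxidase that acts on elastic fibres, had 69.0, 94.0, 285 and 139 CPM in iBAT at day 2 and 56.6, 129 and 84.1 CPM at day 4, against 15.9, 15.4 and 32.9 CPM at day 0. Each cold library exceeded each day 0 library, and the share of all rows that did so is not given. The log2 changes were 2.86 (SE 0.57, adjusted p = 0.0922) at day 2 and 2.14 (SE 0.57, adjusted p = 0.384) at day 4. DESeq2 called Loxl1 at both days (adjusted p = 0.000134 and 0.0488), and edgeR with no filter called it at day 2 (adjusted p = 0.0119).

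Col4a2 in iBAT averaged 880 ± 364 CPM at day 2 and 863 ± 61.8 at day 4, against 488 ± 51.1 at day 0 (SD, n = 4, 3 and 3), with log2 changes of 0.94 (SE 0.38) and 0.93 (SE 0.40) and adjusted p of 0.355 and 0.697. At day 4, 0 of 36 were called (0% of rows; voom 0), 17 were positive, 2 had an unadjusted p under 0.05, and the median equalled that of all rows at -0.04. Between days 2 and 4, 0 were called (DESeq2 and voom 0), 4 had an unadjusted p under 0.05, and Lamb1 and Eln had log2 changes of -2.17 (SE 0.76) and -1.25 (SE 0.51). Skeletal muscle markers summed to 9826 to 16297 CPM in iBAT at day 2 and 5764 to 26300 at day 4, against 22620 to 68665 at day 0, and their part in these values was not tested.

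Whether cold acted differently between depots was tested directly. No matrix gene passed in any of the 6 comparisons of changes with edgeR (0% of 11041 rows in each). From day 0 to day 4, iWAT minus eWAT gave 35 of 40 negative values with a median of -0.95 against 0.02 over all rows. Fbn1 stood at -3.20 (SE 0.63, adjusted p = 0.233) and Mfap5 at -3.002 (SE 0.73, adjusted p = 0.510). In that comparison 13 had an unadjusted p under 0.05, voom called 0, and DESeq2 called Fbn1 and Mfap5. From day 0 to day 2 the median was -0.73 against -0.10, with 9 under 0.05 unadjusted and Mfap5 called by DESeq2. For iBAT minus iWAT at day 2 the median was 0.99 against -0.03, with 11 under 0.05 and Mfap5 called by DESeq2. For iBAT minus iWAT at day 4, and iBAT minus eWAT at days 2 and 4, 4, 1 and 2 had an unadjusted p under 0.05 and DESeq2 and voom called 0. These comparisons share libraries, and the larger number of calls between iWAT and eWAT at day 4 than at day 0 is not itself shown by a test.

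Genes around the matrix proteins were counted from wider lists, and these counts stand beside 5.44% of all rows lower and 4.49% higher. Of 37 tested other matrix proteins, 13 were lower in iWAT than in eWAT at day 4 and 1 was higher, with a median of -1.19. The lower ones included Col6a5, a type VI collagen chain (-4.02), and Emilin2 and Mfap4, glycoproteins of elastic fibres and microfibrils (-3.74 and -3.65), and the higher one was Col27a1 (2.03), named after its value was seen. Of 20 other proteases and inhibitors 8 were lower and 0 higher, among them Plat, the tissue plasminogen activator (-3.99), Plau, urokinase (-2.95), and Adamts15 (-2.48). Of 17 matrix receptors 3 were lower and 0 higher: the proteoglycan Sdc1 (-3.06), the collagen receptor Ddr2 (-2.32) and the fibronectin receptor chain Itga5 (-0.97). Of 12 genes for procollagen modification and secretion 1 was lower, Adamts2, the procollagen N-proteinase (-1.99). Of 14 TGF-beta pathway genes and targets 3 were lower: the ligands Tgfb2 (-3.35) and Tgfb3 (-2.57) and the target Ctgf (-3.13).

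For brown fat against eWAT at day 4, where 11.4% of all rows were lower and 6.67% higher, the same lists gave 11 lower and 2 higher of 37 other matrix proteins, 6 and 2 of 20 proteases and inhibitors, 4 and 1 of 17 receptors, 3 and 0 of 12 procollagen genes, and 0 of 14 TGF-beta genes. Col6a5 averaged 0.768 ± 0.955 CPM in iBAT and 191 ± 92.6 CPM in eWAT, a log2 difference of -8.16 (SE 1.08). Thbs3, a thrombospondin, and Matn2, a matrilin, stood at -3.98 (SE 0.77) and -3.58 (SE 0.82). Among proteases and inhibitors the largest were the gelatinase Mmp9 at -5.56 (SE 0.96), Timp4 at -2.77 (SE 0.41) and the aggrecanase Adamts5 at -2.67 (SE 0.64), and among receptors Sdc1, Ddr2 and Sdc2 at -3.29, -2.95 and -2.25. Col27a1 and Ltbp2, named after their values were seen, were the 2 higher matrix proteins, at 3.40 (SE 0.65) and 1.93 (SE 0.53).

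With cold, 1 gene of these 5 lists was called in any depot. Svep1, a large cell adhesion protein of the matrix, averaged 12.2 ± 1.15 CPM in iBAT at day 2 and 102 ± 33.6 CPM at day 0 (SD, n = 4 and 3), a log2 change of -2.97 (SE 0.39, adjusted p = 0.0257). None of the 7 fits with 1 library left out kept the call (adjusted p 0.0516 to 0.226). It was 1 of 31 other matrix proteins tested there, whose median was -0.23, with 12 positive and 19 negative. No gene of the lists was called in iWAT or eWAT. All 13 TGF-beta genes tested in iWAT were negative at day 4, with a median of -0.47, and 16 of 19 other proteases and inhibitors at day 2, with a median of -0.64.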

How the data were processed

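RNA was sequenced from 31 fat depot libraries. The authors deposited 1 table of raw counts for each depot, with a RefSeq transcript in each row. Cutadapt (an adapter trimmer), BWA (an aligner) and build mm10 are named, without versions or settings, in the submitters' processing notes; the counting step and strand use are not given in the sources used here. The deposited tables list no count below 1, and a missing row was read as 0. Rows were named from their accessions: 17030 by RefSeq, 105 by GENCODE and 199 not at all. Promoters come from RefSeq (GRCm38.p6).

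Counts were tested with edgeR 4.0.16 (quasi-likelihood F-test, TMM scaling, robust) in R 4.3.3, with limma 3.58.1 and DESeq2 1.42.0 as alternatives. Rows were kept by filterByExpr with a minimum count of 10 and total of 15. Cold was tested within each depot, and depots and differences of changes in 1 fit of all libraries. Benjamini-Hochberg adjustment ran over all rows tested, with a threshold of 0.05. Levels are TMM-scaled CPM, and log2 values are edgeR's fitted differences. The fits were tested on simulated counts.

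The matrix genes and the other lists were chosen with earlier results of these data known. Values per library were to be given for Col1a1, Col3a1, Col4a1, Col6a3, Dcn, Eln, Fn1, Sparc, Lox, Timp1, Mmp2 and Pdgfra; Col6a3 and Dcn have almost no counts, and Timp1 and Pdgfra were not analysed here. In each comparison the text names the genes past the threshold, up to 6 in each direction in full and by size, otherwise the 2 of smallest adjusted p, up to 3 called genes of each wider pathway list by size, and up to 2 of each cell marker list; further genes were named after their values were seen. The depot contrasts at day 2 and the fits on 1 side of the library score were added after seeing the data. Alternatives were size factors, library size alone, no filter, rows of a symbol summed, the score as covariate, a replicate block, only the compared groups, and each library left out.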

Additional observations from a re-analysis of the deposited data

Results flagged for a closer look

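Among groups of 4 or 5 libraries, 26 sets of values (8 genes, and the summed matrix level, where counts allowed) were examined for a library far from the others, and 2 met the criterion, where chance gives about 1 in 20. In iBAT at day 2, Eln had 15.1 CPM in iBAT534, against 40.6 to 43.5 CPM in the other libraries of that group. In iWAT at day 0, Col1a1 had 654 CPM in iWAT522, against 73.6 to 106 CPM in the others. iWAT522 is the day 0 iWAT library below the gap of the library score.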

How the results depend on the processing

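Numbers of matrix genes called are given as higher and lower together. The share of all rows called in each alternative is not given beside them, so a larger number is not shown to be particular to matrix genes. Between a cold day and day 0, edgeR called 0 in every depot and in every fit with 1 library left out (0 to 0). DESeq2 called 1 in iBAT at day 2 and 1 at day 4, 5 in iWAT at day 2 and 2 at day 4, and with no filter 1 was called in iBAT at day 2. Of the differences of changes, DESeq2 called 1 for iBAT minus iWAT at day 2, and 1 and 2 for iWAT minus eWAT at days 2 and 4.

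For iBAT minus iWAT at day 0 (3 called), 5 were called with the score as covariate, 8 with the replicate block, and 2 to 6 with 1 library left out (6 without iWAT522). At day 2 (10 called) the replicate block gave 1, lower, which turns the direction; leaving out 1 library gave 4 to 12 (6 without iBAT535 or iWAT532, 4 without iWAT538, 5 without iWAT539). At day 4 (4 called), DESeq2 gave 9, the score 7, its low side 7, only the compared groups 2, the replicate block 0, and leaving out 1 library 2 to 5 (2 without iBAT550).

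For iBAT minus eWAT at day 0 (7 called), library size alone gave 13, DESeq2 12, the score 11, and leaving out 1 library 2 to 5 (2 without iBAT516, 3 without iBAT517, 4 without eWAT518). At day 2 (9 called), library size alone gave 22, DESeq2 15, the score 15, leaving out iBAT539 and iBAT548 5, the high side of the score 4, only the compared groups 3, the replicate block 0, and leaving out 1 library 3 to 9 (5 without iBAT539, 3 without eWAT538). At day 4 (18 called), only the compared groups gave 10 and leaving out 1 library 13 to 18; with 1 shared number no block could be fitted.

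For iWAT minus eWAT at day 0 (6 called), the score gave 10, the replicate block 10 and leaving out 1 library 4 to 9. At day 2 (16 called), leaving out 1 library gave 7 to 15 and the block 17. At day 4 (23 called), the replicate block gave 11 and leaving out 1 library 17 to 24. Library numbers are shared across depots, and a number that recurs has the same day in each depot. Same-numbered libraries correlated at -0.439 to 0.364, and libraries with different numbers at -0.595 to 0.549. These correlations cannot decide whether a number marks the same mouse, because an axis shared by all depots makes up much of the variance within groups. Whether the numbers pair libraries was therefore not tested.

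Library size alone moved the median of all rows for iBAT minus eWAT to -0.62, -0.82 and -0.82 at days 0, 2 and 4, and for iBAT minus iWAT to -0.53, -0.54 and -0.79. The summed matrix level in iBAT was 7471, 7473 and 7272 CPM at days 0, 2 and 4 without TMM scaling, and 16024 in eWAT at day 0. Without Sparc and Col3a1 it was 3848, 4348 and 3880 in iBAT, 3813, 3041 and 3036 in iWAT, and 7189 and 10566 in eWAT at days 0 and 4. The cause of these changes was not tested. With 3 to 5 libraries a group, a gene not called is not shown to be unchanged.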
